A study of Homo sapiens with 12 samples.

Results

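The genes described here are those whose transcripts fell with dihydrotestosterone (DHT) in LNCaP cells carrying the control shRNA. LNCaP is an androgen-dependent human prostate cancer line derived from a lymph node metastasis, and DHT is the most potent natural androgen. Members were selected on the shScramble libraries: a mean of at least 10 CPM (counts scaled to the same total in every library) without DHT, a mean with DHT of at most 50% of that, and every DHT+ library below every DHT- library. Of 34643 gene symbols, 192 met the rule. Of these, 3 were left out by name, a choice of the re-analysis and not of the study. So 189 members remained (1.88% of the 10076 genes at 10 CPM or more in shScramble DHT-). Because the fall in shScramble chose the members, it is given below as a description without a test. The 6 libraries of the other line, shTMEFF2, took no part in the choice, and the response to DHT was tested there.

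The series holds 12 RNA-seq libraries in 4 groups of 3: shScramble DHT-, shScramble DHT+, shTMEFF2 DHT- and shTMEFF2 DHT+. All cells had been transduced with a lentiviral pLKO.1-puro vector, in which the U6 promoter drives the shRNA, and selected in puromycin. About 2.5 weeks after transduction they were kept for 24 h in charcoal-stripped serum, which is poor in androgens, and then received 10 nM DHT or ethanol (vehicle, DHT-) for 24 h. The shRNA of the shTMEFF2 cells targets TMEFF2, an androgen-responsive transmembrane protein with follistatin-like and EGF-like domains, whereas the shScramble cells carried a sequence without a target. The 3 libraries of a group were separate treatments of cells from 2 transductions, so the p-values below measure the spread between such treatments.

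Libraries held 19450866 to 22612046 counts (median 21194622). TMEFF2 was at 73.9 to 106.9 CPM in shScramble DHT- and at 39.3 to 82.3 CPM in shTMEFF2 DHT-, and at 114.1 to 165.5 and 90.6 to 143.3 CPM with DHT. The ranges of the lines overlapped at both DHT levels (log2 difference -0.43, SE 0.25, adjusted p = 0.503 without DHT; -0.41, SE 0.25, adjusted p = 0.304 with DHT; quasi-likelihood test in edgeR, with Benjamini-Hochberg adjustment, as for every adjusted p below). TMEFF2 was lower in shTMEFF2 than in the shScramble library of the same number in each of 3 pairs without DHT and 3 with DHT. Libraries of the same number deviated together weakly, so the overlap of the ranges does not show that TMEFF2 was alike in the lines. An edgeR fit with a replicate block, chosen after seeing the data, gave -0.47 (SE 0.14, adjusted p = 0.124) without DHT. With DHT it gave -0.40 (SE 0.14, adjusted p = 0.0689). These adjusted p-values correct for all genes tested, although TMEFF2 alone was the target of the shRNA. The paper reports Western blots in which some of its TMEFF2 shRNAs appreciably lowered the protein in LNCaP cells. Protein was not measured in these libraries. The name shTMEFF2 is used below as the label of the line. The luminal markers KRT8, KRT18, EPCAM, HOXB13, FOLH1, KLK3, CDH1 and FOXA1 were all at or above 94.2 CPM in every library, whereas KRT5 of basal cells was at 0, and KRT14, TP63 and KRT15 stayed at or below 1.38 CPM. Of 7 fibroblast markers, COL1A1 was at 11.6 to 31.0 CPM and COL3A1 reached 3.05 CPM, and the other 5 stayed at or below 1.38 CPM. Of 6 immune markers, PTPRC was at 3.08 to 7.90 CPM and CD68 at 3.17 to 8.59 CPM, and the other 4 stayed at or below 0.355 CPM. In bulk libraries, fewer cells of a type and less RNA per cell cannot be told apart.

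Androgens are steroid hormones that change the transcription of many genes in prostate cells. They are best known for the genes they switch on, such as KLK3, which encodes prostate-specific antigen, but they also lower many transcripts, OPRK1 among the familiar examples. Lowered genes include ones that are transcribed most when androgen is scarce. KLK3 was at 1936 to 1969 CPM in shScramble DHT- and 7042 to 7525 CPM in shScramble DHT+, against 255 to 512 and 1465 to 2495 CPM in shTMEFF2. KLK3 was thus lower in shTMEFF2 than in shScramble at both DHT levels, with no overlap, and the part of this difference in the results below was not tested.

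The largest fall was that of AMIGO2, a leucine-rich repeat adhesion protein. Its 3 shScramble libraries were at 11.2, 9.99 and 9.15 CPM without DHT and at 0.593, 0.751 and 1.06 CPM with DHT, so 7.92% of the DHT- level was left. In shTMEFF2 the values were 8.61, 9.93 and 7.11 CPM without DHT and 5.32, 4.39 and 3.63 CPM with DHT. The lines overlapped without DHT, but with DHT every shTMEFF2 library was above every shScramble library. DHT lowered AMIGO2 in shTMEFF2 too (log2 fold change -0.94, SE 0.20, adjusted p = 0.00926). The call was lost without shTMEFF2 DHT+ replicate 3 (log2 fold change -0.80). VWA2, an extracellular matrix protein with von Willebrand factor A domains that was proposed as a marker of these genes, had an even lower share left (5.63%) but was not a member, because its mean in shScramble DHT- was 8.28 CPM. It fell from 10.8 ± 1.27 to 3.93 ± 0.720 CPM in shTMEFF2 (SD, n = 3; log2 fold change -1.45, SE 0.25, adjusted p = 0.00315, edgeR).

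The 250 bases before the transcription start are shown for 4 members whose values the report turns on: AMIGO2, with the largest fall; SI, which was among the deepest falls in shScramble but kept 61.3% of its level in shTMEFF2; and the neighbours ACTRT3 and MYNN. Sequences are from RefSeq on GRCh38.p14 for the outermost listed start, 5′ to 3′ on the gene's strand. Capitals mark matches, on either strand, to 7 short motifs: TATAAA (the core promoter box named after it), AGAACA (one arm of the steroid response element), TGTTTAC (forkhead), CACGTG (E-box), TGACGTCA (cAMP response element), TGANTCA (AP-1) and GGGCGG (GC box).

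AMIGO2, chr12:47079960-47080209, minus strand: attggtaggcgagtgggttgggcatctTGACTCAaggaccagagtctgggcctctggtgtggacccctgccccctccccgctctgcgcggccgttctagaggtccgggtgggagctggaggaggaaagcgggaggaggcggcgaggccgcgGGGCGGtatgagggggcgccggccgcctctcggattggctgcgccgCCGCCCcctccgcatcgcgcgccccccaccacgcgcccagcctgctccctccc
SI, chr3:165078497-165078746, minus strand: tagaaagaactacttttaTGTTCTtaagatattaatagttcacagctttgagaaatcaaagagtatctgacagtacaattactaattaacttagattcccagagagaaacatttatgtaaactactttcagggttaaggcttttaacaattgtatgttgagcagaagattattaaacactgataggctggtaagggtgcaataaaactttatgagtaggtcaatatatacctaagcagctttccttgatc
ACTRT3, chr3:169769562-169769811, minus strand: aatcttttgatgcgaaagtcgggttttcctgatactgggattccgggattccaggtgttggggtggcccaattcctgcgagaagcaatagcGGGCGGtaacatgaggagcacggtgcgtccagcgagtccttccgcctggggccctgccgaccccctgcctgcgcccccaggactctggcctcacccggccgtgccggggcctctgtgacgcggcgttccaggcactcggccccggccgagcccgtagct
MYNN, chr3:169773146-169773395, plus strand: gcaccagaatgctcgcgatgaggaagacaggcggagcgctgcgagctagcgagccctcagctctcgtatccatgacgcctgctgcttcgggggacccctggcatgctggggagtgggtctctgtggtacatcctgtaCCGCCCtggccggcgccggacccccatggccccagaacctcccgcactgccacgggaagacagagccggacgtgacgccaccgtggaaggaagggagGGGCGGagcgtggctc

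The AMIGO2 window lies in PCED1B, a gene on the other strand, and holds an AP-1 match that begins 223 bases before the start and 2 GC boxes. The SI window is poor in GC (31.6%) and holds a single match, to the steroid response motif, 232 bases before the start, whereas ACTRT3 and MYNN hold GC boxes only. In the ACTRT3 window 163 bases overlap an exon of an unnamed gene on the other strand. Promoters were found for 134 members. The steroid response motif was in 13 of them (9.7%), against 12.4% of all 27305 promoters and 7.1% of those of 8146 genes at 10 CPM or more. The shares for the forkhead motif were 5.2%, 3.0% and 2.0%, those for AP-1 6.0%, 6.6% and 3.2%, those for the TATA box 8.2%, 11.2% and 4.4%, and those for the GC box 60.4%, 42.2% and 69.2%. The E-box was in 7.5%, 6.5% and 9.4%, and the cAMP response element in 1.5%, 1.8% and 3.1%. Median GC content was 64.8% for members and 65.2% for genes at 10 CPM or more. These are counts of letters in short windows and say nothing of where a factor binds.

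Over all 189 members, the share of the DHT- level left with DHT in shScramble ran from 7.92% to 49.94%, with a median of 39.9%. A fall to at most 20% was seen for 14 members. Just inside the limit of 50% lay ENO2 (49.943%), RTN4RL1 (49.857%) and KLHL1 (49.837%), and just outside it BTN2A2 (50.001%), RP11-98J23.2 (50.105%) and KLHL24 (50.129%). At the limit of 10 CPM, CCDC88B (10.001 CPM), AMIGO2 (10.121 CPM) and EIF4E3 (10.299 CPM) lay just inside, and APBA1 (9.794 CPM), AUTS2 (9.768 CPM) and KHDRBS3 (9.658 CPM) just outside. Members spanned a wide range of levels without DHT, from 10.0 CPM to the 1696 CPM of AIDA, with a median of 32.0 CPM.

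In shTMEFF2, DHT lowered the mean of 183 of the 189 members, but far less. The median share left was 69.6% (range 31.1% to 116%), and 19 members were at 50% or less. Summed over the members, CPM went from 18491 to 21822 in the shScramble DHT- libraries to 7171 to 7889 in shScramble DHT+, and from 19031 to 21784 in shTMEFF2 DHT- to 15700, 13512 and 12810 in shTMEFF2 DHT+ replicates 1, 2 and 3. The lines thus started from the same summed level, and no shTMEFF2 DHT+ library came down to the shScramble DHT+ range. The share left was higher in shTMEFF2 than in shScramble for 189 of 189 members, a direction that the choice on shScramble favours.

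**Figure D1:**
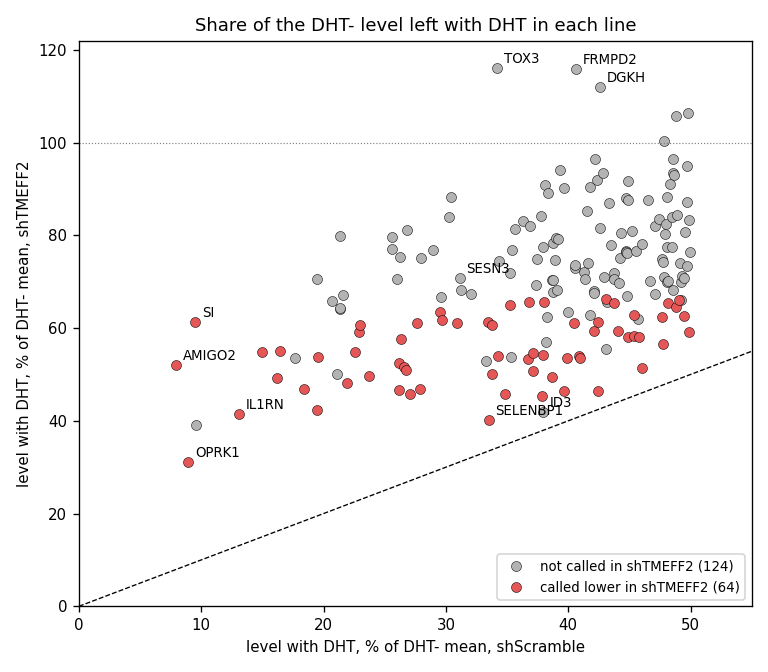
Share of the DHT- mean left with DHT, in percent, in shScramble (x axis, used to choose the members) and shTMEFF2 (y axis); each point is a gene, red points were called lower in shTMEFF2, the dashed line marks equal shares and the dotted line 100%. All points lie above the dashed line, OPRK1 is lowest at 31.1% and TOX3 highest at 116%; 1 Y-linked member, called lower, is not drawn.

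All 189 members were tested for DHT in shTMEFF2, and 65 (34.4%) were called lower, which required a 1.5-fold change with an adjusted p no higher than 0.05. Over the 15419 genes tested the same call was made for 247 (1.6%), so members make up 26.3% of those calls. At an adjusted p of at most 0.05 without the limit on the fold, 95 members were lower (5.21% of all genes tested). No member was called higher (3.28% of all genes tested), with 0 at an unadjusted p of at most 0.05 and 0 by DESeq2 or limma-voom. The 3 DHT+ libraries were below the 3 DHT- libraries for 114 members, whereas 15.8% of all genes tested showed this, and the 65 called members were all among the 114. The median log2 fold change was -0.52 for the members, with the middle range from -0.78 to -0.33 between the quartiles, and -0.02 for all genes tested. Of the calls, 34 were made in the main fit and in each of 19 alternative fits, and without shTMEFF2 DHT+ replicate 3 only 41 members were called.

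The calls were spread over deep and shallow falls. Of the 50 members that fell 3-fold or more in shScramble, 27 were called lower in shTMEFF2, with a median log2 fold change of -0.74, against 38 of the other 139, with a median of -0.48. Members of all levels were called, among them 28 of 70 members under 20 CPM, 22 of 72 at 20 to 100 CPM and 15 of 47 at 100 CPM or more, with median log2 fold changes of -0.60, -0.505 and -0.49. The median standard error was 0.197 under 20 CPM and 0.128 at 100 CPM or more, so smaller changes could pass the adjusted p among the abundant members. No test of these differences between subsets was made.

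Whether the fall differs between the lines cannot be tested on the libraries that chose the members, so the choice was repeated on 2 replicates and the third was used for the comparison. With replicate 1, 2 or 3 held out, the rule chose 184, 210 and 211 genes, of which 158, 176 and 169 were members. In the held-out shScramble pair the median log2 ratio of CPM (0.5 CPM added to each value) was -1.32, -1.19 and -1.13, against -1.26, -1.28 and -1.33 in the libraries used for the choice. The same genes in the shTMEFF2 pair of the same number had medians of -0.39, -0.57 and -0.54. The fall was larger in the held-out shScramble pair for 172 of 184, 189 of 210 and 185 of 211 genes. These are counts of genes within 1 pair of libraries per line, not of replicates. The smaller response of shTMEFF2 was thus also seen against libraries that took no part in the choice. The genes were still chosen for a fall in the shScramble line, which favours genes that respond more in that line than in shTMEFF2.

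**Figure D2:**
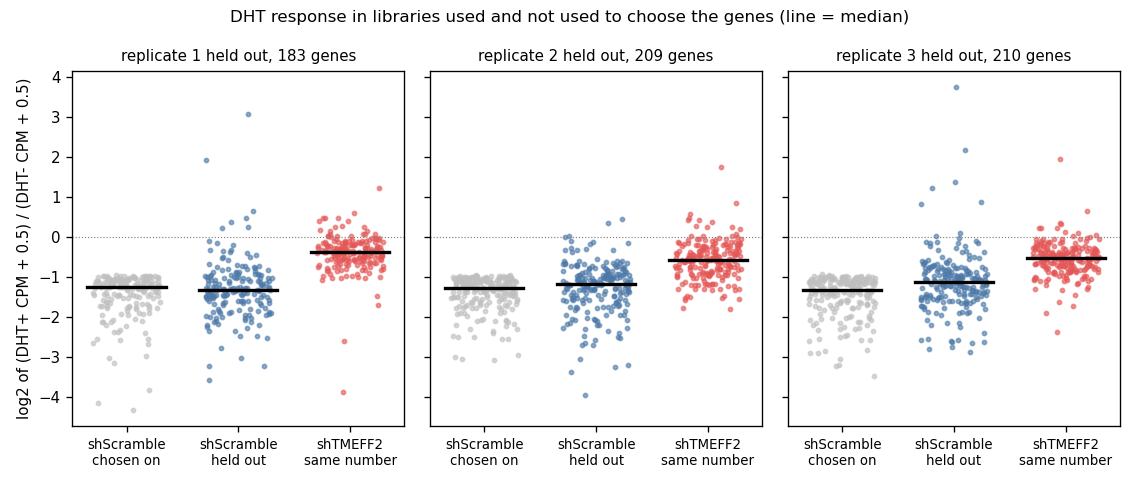
Log2 ratio of DHT+ to DHT- CPM, with 0.5 CPM added to each, for the genes chosen on 2 replicates of shScramble: in the choosing libraries (grey), the held-out shScramble pair (blue) and the shTMEFF2 pair of the same number (red); each point is a gene and black lines are medians. The red medians (-0.39, -0.57 and -0.54) lie above the blue ones (-1.32, -1.19 and -1.13) in every panel; 1 Y-linked gene is not drawn.

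The difference of the responses was then tested gene by gene in edgeR on the held-out shScramble pair and the 6 shTMEFF2 libraries, which assumes that the lone shScramble libraries vary like those of the other line. A smaller fall in shTMEFF2, at an adjusted p of at most 0.05, was called for 14 of 184, 15 of 210 and 4 of 211 genes, and a larger fall for 0 in each case. Over all genes tested the same call was made for 0.155%, 0.149% and 0.031%. The median log2 difference was 0.80, 0.76 and 0.62 for the chosen genes and 0.01 for all genes in each of the 3 fits. With a single shScramble pair, most single genes could not be called. CAMK2N1, DDC, FAM198B and TMEM144 were called with each replicate held out, and these 3 fits share the shTMEFF2 libraries.

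CAMK2N1, an inhibitor of the kinase CaMKII, was at 239, 282 and 260 CPM in shScramble DHT- and at 51.1, 52.4 and 48.9 CPM in shScramble DHT+. In shTMEFF2 it was at 279.8, 316 and 333 CPM without DHT and at 181, 156 and 162 CPM with DHT. The DHT+ libraries of each line lay close together, and those of shTMEFF2 were about 3.28-fold higher. DHT lowered it in shTMEFF2 with the smallest adjusted p of all members (log2 fold change -0.89, SE 0.09, adjusted p = 0.000145). The held-out difference between the lines was 1.26, 1.504 and 1.44 on the log2 scale (SE 0.17 each, adjusted p = 0.0281, 0.0226 and 0.0353).

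DDC encodes aromatic L-amino acid decarboxylase, which makes dopamine and serotonin. Its values were 177, 247 and 210 CPM in shScramble DHT-, 33.9, 37.6 and 32.9 CPM in shScramble DHT+, 291.5, 317 and 350.4 CPM in shTMEFF2 DHT-, and 197, 164 and 168 CPM in shTMEFF2 DHT+. It was higher in shTMEFF2 at both DHT levels, without overlap. DHT lowered it in shTMEFF2 (log2 fold change -0.86, SE 0.12, adjusted p = 0.000954), and the held-out differences were 1.45, 1.82 and 1.74 (SE 0.19 each, adjusted p = 0.0241, 0.0146 and 0.0353). FAM198B, now named GASK1B and encoding a Golgi-associated protein, went from 854, 1003 and 686 to 202, 233 and 149 CPM in shScramble and from 686, 847 and 734 to 491, 463 and 420.3 CPM in shTMEFF2. Its groups did not overlap in either line (log2 fold change in shTMEFF2 -0.72, SE 0.16, adjusted p = 0.0128), but the call was lost without shTMEFF2 DHT+ replicate 3 or DHT- replicate 2. TMEM144, a transporter-like membrane protein, went from 80.9, 97.6 and 90.1 to 32.6, 38.8 and 33.3 CPM in shScramble and from 70.4, 70.4 and 69.6 to 54.3, 56.5 and 56.2 CPM in shTMEFF2, a change under the 1.5-fold limit (log2 fold change -0.33, SE 0.08, adjusted p = 0.0178).

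**Figure D3:**
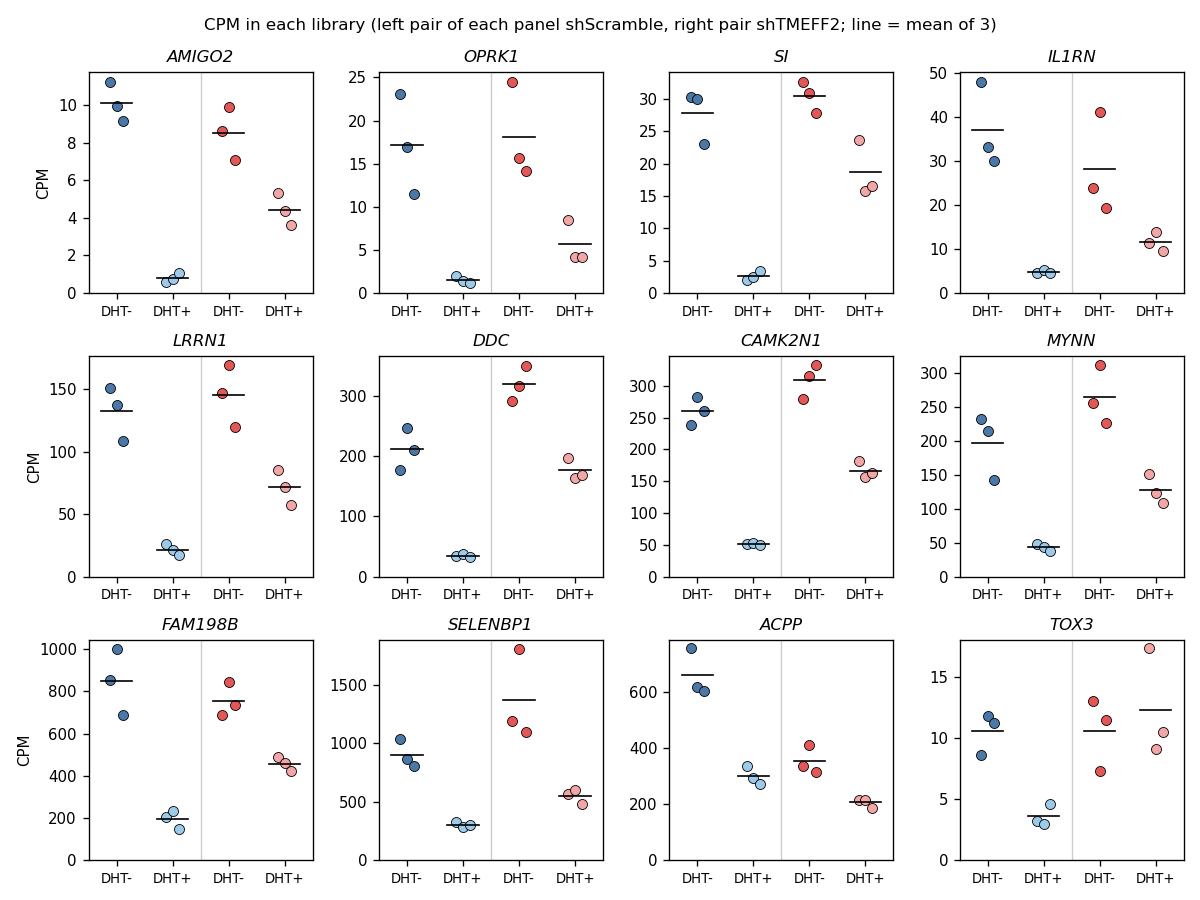
CPM of 12 members in each of the 12 libraries, with the 2 shScramble groups on the left (blue) and the 2 shTMEFF2 groups on the right (red) of each panel; points are libraries, lines are means of 3, and each vertical axis starts at 0. In all panels except that of ACPP the shTMEFF2 DHT+ libraries are above the shScramble DHT+ libraries, and in the TOX3 panel the shTMEFF2 groups overlap.

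Among secreted factors, 4 of 10 members were called lower in shTMEFF2 (median log2 fold change -0.67). IL1RN, the natural antagonist of interleukin-1 receptors, was at 47.9, 33.0 and 29.9 CPM in shScramble DHT- and at 4.61, 5.28 and 4.62 CPM in shScramble DHT+. In shTMEFF2 it was at 23.8, 41.0 and 19.3 CPM without DHT and at 11.4, 13.9 and 9.57 CPM with DHT. Groups were separate within each line (log2 fold change in shTMEFF2 -1.28, SE 0.26, adjusted p = 0.00800). PLA2G2A, a secreted phospholipase, went from 37.6, 43.6 and 33.9 to 8.30, 7.40 and 6.66 CPM in shScramble and from 41.0, 58.9 and 54.2 to 23.9, 20.2 and 21.1 CPM in shTMEFF2, where it was called lower with log2 fold change -1.25 (SE 0.15, adjusted p = 0.000458). The peptide neurotensin (NTS) varied widely between libraries, at 50.1, 29.4 and 18.4 CPM in shTMEFF2 DHT- and 29.2, 12.6 and 7.22 CPM in shTMEFF2 DHT+, so its groups overlapped and it was not called (log2 fold change -0.99, SE 0.52, adjusted p = 0.242). LIF, a cytokine of the interleukin-6 family, was at 13.4, 10.4 and 13.5 CPM in shScramble DHT- and 6.19, 6.04 and 6.35 CPM in shScramble DHT+, whereas in shTMEFF2 it was at 8.501, 5.89 and 6.22 CPM without DHT and 7.02, 7.72 and 7.17 CPM with DHT. Its shTMEFF2 groups overlapped (log2 fold change 0.09, SE 0.15, adjusted p = 0.757).

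Of 12 surface receptors, 5 were called lower in shTMEFF2 (median log2 fold change -0.59). OPRK1, the kappa opioid receptor, had the lowest fitted value of all members there. It was at 23.1, 16.9 and 11.5 CPM in shScramble DHT- and 2.01, 1.40 and 1.20 CPM in shScramble DHT+, and at 24.4, 15.7 and 14.2 CPM in shTMEFF2 DHT- and 8.47, 4.22 and 4.19 CPM in shTMEFF2 DHT+. The groups were separate in both lines, and the fall was 3.21-fold in shTMEFF2 (log2 fold change -1.69, SE 0.33, adjusted p = 0.00583) beside 11.2-fold in shScramble. ACKR3, a scavenging chemokine receptor, was at 107, 102.5 and 110.0 CPM in shScramble DHT- and 26.2, 15.4 and 24.4 CPM in shScramble DHT+, but at 112, 83.0 and 106 CPM in shTMEFF2 DHT- and 85.7, 60.4 and 51.5 CPM in shTMEFF2 DHT+. Its shTMEFF2 groups overlapped through replicate 1 with DHT, and it missed the threshold (log2 fold change -0.60, SE 0.20, adjusted p = 0.0631), which it passed in 6 of the 19 alternative fits. GPER1, a membrane estrogen receptor, and GPR63, an orphan receptor, were called lower at log2 fold changes of -0.98 and -0.61. ADGRG6, an adhesion receptor at 1002 CPM in shScramble DHT-, was not (-0.37, adjusted p = 0.149).

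Adhesion and guidance proteins had 4 of 12 members called lower (median log2 fold change -0.41). LRRN1, a neuronal leucine-rich repeat protein, went from 150, 137 and 109 to 25.7, 21.3 and 17.1 CPM in shScramble and from 146, 169 and 120 to 85.1, 71.3 and 57.4 CPM in shTMEFF2 (log2 fold change -1.02, SE 0.18, adjusted p = 0.00410). Without DHT the lines overlapped, and with DHT the shTMEFF2 libraries were 3.34-fold higher. CDH26, a cadherin, was at 8.84, 8.87 and 8.82 CPM in the shScramble DHT+ libraries, against 28.8 to 33.6 CPM without DHT. In shTMEFF2 its groups overlapped, at 28.5 to 44.3 CPM without and 23.2 to 31.0 CPM with DHT (log2 fold change -0.41, SE 0.15, adjusted p = 0.0869). The syndecan SDC2 had nearly the same mean with and without DHT in shTMEFF2 (100% left; log2 fold change 0.01, SE 0.20, adjusted p = 0.989). SEMA6A, a transmembrane semaphorin, was 2.25-fold higher in shTMEFF2 than in shScramble without DHT, with overlap, and was not called (log2 fold change -0.92, SE 0.30, adjusted p = 0.0667). From the list of cell adhesion receptors written by hand, 38 genes were tested and 3 were members (AMIGO2, CDH26 and ITGA3). In shTMEFF2 2 of the 38 were called lower and 2 higher, with a median of -0.16 beside -0.10 in shScramble. Of 49 axon guidance genes, 1 was a member (SEMA6A), 4 were called lower and 0 higher, with a median of -0.12 beside -0.13 in shScramble.

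Matrix proteins and proteases were few. TLL1, a tolloid-like metalloprotease, was at 19.3, 23.6 and 16.1 CPM in shScramble DHT- and at 3.07, 2.01 and 3.77 CPM in shScramble DHT+, and at 11.4, 9.80 and 10.35 CPM in shTMEFF2 DHT- and 6.21, 5.53 and 5.51 CPM in shTMEFF2 DHT+. It was lower in shTMEFF2 without DHT and higher in shTMEFF2 with DHT, without overlap either way (log2 fold change with DHT in shTMEFF2 -0.87, SE 0.19, adjusted p = 0.0124), and the call was lost without shTMEFF2 DHT+ replicate 3. TIMP2, an inhibitor of matrix metalloproteases, fell from 53.7, 59.6 and 64.7 to 23.5, 25.5 and 29.5 CPM in shScramble and from 55.5, 59.9 and 61.8 to 33.7, 35.2 and 36.5 CPM in shTMEFF2 (log2 fold change -0.75, SE 0.09, adjusted p = 0.000458). The collagen chain COL5A2 kept 17.7% in shScramble and 53.5% in shTMEFF2, where its groups overlapped (log2 fold change -0.90, SE 0.35, adjusted p = 0.119).

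Of 17 metabolic enzymes, 6 were called lower in shTMEFF2 (median log2 fold change -0.42). SI, sucrase-isomaltase of the intestinal brush border, was at 30.3, 30.0 and 23.1 CPM in shScramble DHT- and at 2.06, 2.41 and 3.46 CPM in shScramble DHT+. In shTMEFF2 it was at 32.6, 30.9 and 27.8 CPM without DHT and still at 23.6, 15.8 and 16.5 CPM with DHT. With DHT it was 7.05-fold higher in shTMEFF2, the highest such ratio of all members, although it did fall in that line (log2 fold change -0.71, SE 0.18, adjusted p = 0.0217), a call lost when any of 4 shTMEFF2 libraries was left out. SELENBP1, a selenium-binding methanethiol oxidase, went from 1039, 864 and 808 to 324, 282 and 301 CPM in shScramble and from 1192, 1810 and 1095 to 565, 601 and 481 CPM in shTMEFF2. It was higher in shTMEFF2 at both DHT levels, without overlap, and 33.5% and 40.2% of the DHT- level were left in shScramble and shTMEFF2 (log2 fold change in shTMEFF2 -1.32, SE 0.17, adjusted p = 0.000797). ACPP, prostatic acid phosphatase, a classical secretory product of the prostate, fell from 756, 618 and 602 to 333, 293 and 271 CPM in shScramble and from 336.5, 411 and 312 to 214, 216 and 187 CPM in shTMEFF2. It was lower in shTMEFF2 at both DHT levels, without overlap (log2 fold change with DHT in shTMEFF2 -0.78, SE 0.12, adjusted p = 0.00210). BCHE, butyrylcholinesterase, kept 25.6% in shScramble but was not called in shTMEFF2, at 180 to 264 CPM without and 135 to 198 CPM with DHT (log2 fold change -0.37, SE 0.22, adjusted p = 0.303). MANEA, a Golgi mannosidase, was called lower (log2 fold change -0.80, SE 0.10, adjusted p = 0.000759).

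**Figure D4:**
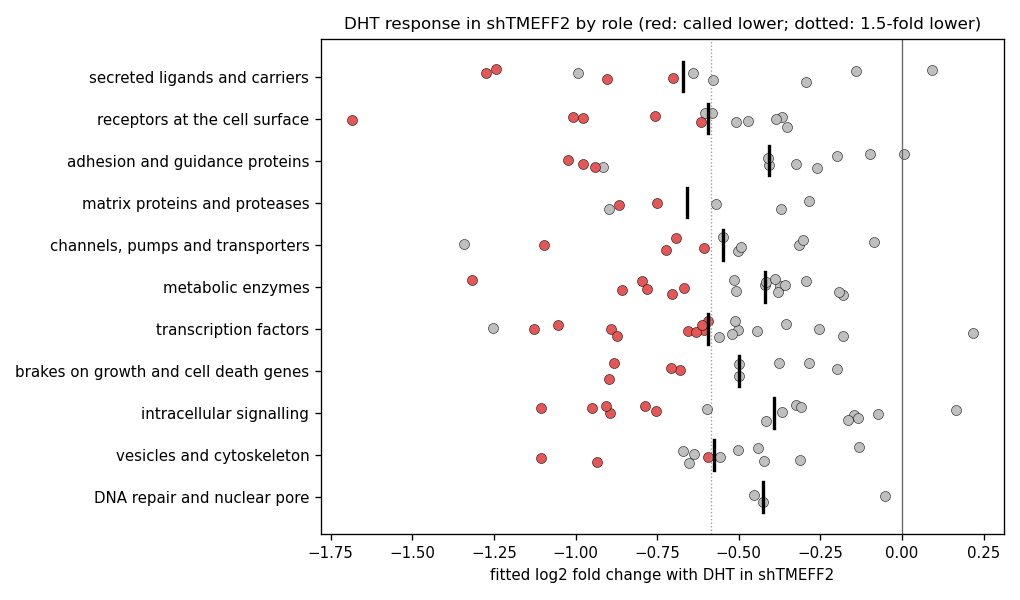
Fitted log2 fold change with DHT in shTMEFF2 for members grouped by role, with members called lower in red, group medians as black bars, and a dotted line at 1.5-fold lower. Group medians run from -0.39 for intracellular signalling to -0.67 for secreted factors, OPRK1 is the point farthest left, and the few points right of 0 include TOX3 at 0.22 and DGKH at 0.17; 1 Y-linked member is not drawn.

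Channels, pumps and transporters had 4 of 11 members called lower (median log2 fold change -0.55). ABCG1, which exports cholesterol, fell from 34.8, 28.3 and 16.6 to 8.45, 6.88 and 5.56 CPM in shScramble and from 30.5, 30.5 and 23.7 to 15.3, 12.9 and 11.2 CPM in shTMEFF2 (log2 fold change -1.10, SE 0.24, adjusted p = 0.0108). SLC44A1, a choline carrier, TMEM38B, a cation channel of the endoplasmic reticulum, and SLC9A3, a sodium-proton exchanger, were called lower at -0.72, -0.69 and -0.61. ATP1B1, a subunit of the sodium pump, was abundant and variable, at 644 to 910 CPM in shTMEFF2 DHT- and 391 to 713 CPM in shTMEFF2 DHT+, and was not called (log2 fold change -0.50, SE 0.24, adjusted p = 0.194). KCNU1, a potassium channel at 3.63 to 18.2 CPM in shScramble DHT-, was not called in shTMEFF2 although its groups were separate there (log2 fold change -1.34, SE 0.65, adjusted p = 0.202).

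Of 19 transcription factors and other DNA-binding regulators, 9 were called lower in shTMEFF2 (median log2 fold change -0.60). ZNF703, a corepressor, fell from 42.6, 43.9 and 34.2 to 10.6, 9.91 and 12.1 CPM in shScramble and from 41.3, 51.6 and 42.4 to 19.9, 22.7 and 19.5 CPM in shTMEFF2 (log2 fold change -1.13, SE 0.13, adjusted p = 0.000438). TRPS1, a GATA-type repressor, was called lower at -0.66 (SE 0.10, adjusted p = 0.00165). The homeobox genes HOXC13, HOXC4 and HOXC12, which lie within one cluster on chromosome 12, had 34.2%, 38.0% and 49.7% left in shScramble, and log2 fold changes in shTMEFF2 of -0.89 (adjusted p = 0.00582), -0.61 (adjusted p = 0.0242) and -0.44 (adjusted p = 0.0597). ID3, an inhibitor of helix-loop-helix factors and a target of BMP signalling, was at 38.8, 62.95 and 16.7 CPM in shTMEFF2 DHT- and 19.0, 21.9 and 8.89 CPM in shTMEFF2 DHT+. The spread was wide, the groups overlapped and it was not called (log2 fold change -1.25, SE 0.49, adjusted p = 0.116). ID3 was also the member with the highest ratio of shTMEFF2 to shScramble without DHT (2.62-fold, with overlap).

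TOX3, an HMG-box regulator, moved least like the rest. It was at 8.62, 11.8 and 11.3 CPM in shScramble DHT- and 3.24, 2.98 and 4.63 CPM in shScramble DHT+, whereas in shTMEFF2 it was at 13.1, 7.29 and 11.5 CPM without DHT and 17.4, 9.15 and 10.5 CPM with DHT. The shTMEFF2 groups overlapped, with 116% of the DHT- mean left (log2 fold change 0.22, SE 0.26, adjusted p = 0.650), and the sign turned without DHT+ replicate 1. The 6 members whose fitted value was not below 0 in shTMEFF2 were TOX3, FRMPD2, DGKH, LIF, ANKRD44 and SDC2, and none differed from 0 at an adjusted p of 0.05. DGKH, a diacylglycerol kinase, was at 164, 167 and 207 CPM in shScramble DHT- and 76.2, 81.3 and 71.9 CPM in shScramble DHT+, against 115, 104 and 139 CPM in shTMEFF2 DHT- and 121.97, 139 and 141 CPM in shTMEFF2 DHT+ (log2 fold change 0.17, SE 0.11, adjusted p = 0.368). In shTMEFF2 it thus lay between the shScramble groups at both DHT levels. FRMPD2, a scaffold protein, did the same, at 14.8 to 19.2 CPM without DHT and 18.0 to 22.9 CPM with DHT in shTMEFF2, beside 24.7 to 28.05 CPM and 9.46 to 11.6 CPM in shScramble.

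Among brakes on growth and cell death genes, 4 of 9 members were called lower in shTMEFF2 (median log2 fold change -0.50). These were NAIP, an inhibitor of apoptosis and innate immune sensor with near-identical copies nearby (-0.71), BMF, a BH3-only death protein (-0.90), DAPK2, a death-associated kinase (-0.88), and PIK3IP1, which restrains PI3K (-0.68, SE 0.09, adjusted p = 0.000759). The sestrins, which restrain mTORC1 under stress, fell clearly in shScramble. SESN3 went from 403, 412 and 389.7 to 132, 119.9 and 122.6 CPM in shScramble and from 344, 322 and 337 to 275, 211 and 223 CPM in shTMEFF2, which passed the adjusted p but not the 1.5-fold limit (log2 fold change -0.50, SE 0.09, adjusted p = 0.00359). SESN1 was at 217 to 288 CPM in shTMEFF2 DHT- and 157 to 235 CPM in shTMEFF2 DHT+, with overlap (log2 fold change -0.38, SE 0.16, adjusted p = 0.145), after 332 to 427 and 113 to 151 CPM in shScramble. TP53INP1, a p53-induced promoter of autophagy, also missed the 1.5-fold limit (-0.50, SE 0.13, adjusted p = 0.0242), and CCNG2, an atypical cyclin that slows the cell cycle, was not called (-0.29, SE 0.11, adjusted p = 0.103). A hand-written list labelled p53 targets held 36 tested genes, of which SESN1, SESN3, TP53INP1 and CCNG2 were members. SESN3 and CCNG2 also stood on the list of brakes on PI3K and growth, so their place on the p53 list is not firm. The median of the p53 list was -0.40 in shScramble and -0.05 in shTMEFF2. In shTMEFF2 2 of the 36 were called lower, MDM2 and TP53INP2, neither of them a member, and 0 higher. Of 34 tested brakes on PI3K and growth, 4 were members, and 1 was called lower and 2 higher in shTMEFF2 (median -0.25, and -0.23 in shScramble).

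In intracellular signalling, 6 of 16 members were called lower (median log2 fold change -0.39): CAMK2N1, GRB10, SRCIN1, FGF13, SHC2 and SNRK. GRB10, an adaptor that dampens insulin signalling, was at 500.5 to 572 CPM in shScramble DHT- and 122.6 to 128 CPM in shScramble DHT+, and at 728.5 to 817 CPM in shTMEFF2 DHT- and 379 to 561 CPM in shTMEFF2 DHT+ (log2 fold change -0.76, SE 0.12, adjusted p = 0.00208). SHC2, another adaptor, was one of 2 members, with ACPP, whose DHT+ libraries were lower in shTMEFF2 than in shScramble without overlap (5.17, 5.20 and 3.62 against 6.54, 5.41 and 7.003 CPM). RNF43, which removes Wnt receptors, was close to its DHT- level in shTMEFF2 (95.0% left; log2 fold change -0.07, SE 0.11, adjusted p = 0.712). Vesicle and cytoskeletal members had 3 of 12 called lower (median -0.58), MYRIP, DENND1B and ENC1, and of the 3 nuclear members PMS2, BARD1 and NUP93 none was called, with PMS2 and NUP93 at adjusted p of 0.0136 and 0.0179 and folds under 1.5. Without a role here were 62 members, of which 18 were called lower (median -0.51). The smallest adjusted p among them was that of FBXO2, an F-box protein that binds glycoproteins, which fell from 23.2, 22.6 and 19.8 to 6.79, 5.87 and 5.62 CPM in shScramble and from 20.2, 22.4 and 18.5 to 9.97, 9.58 and 9.11 CPM in shTMEFF2 (log2 fold change -1.09, SE 0.12, adjusted p = 0.000301). AIDA, an axin-interacting protein and the most abundant member, kept 44.8% in shScramble and 76.1% in shTMEFF2 (log2 fold change -0.39, SE 0.13, adjusted p = 0.0633). Roles were assigned after the members were known, and the counts per role were not compared by a test.

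A list of 20 symbols of genes often described as lowered by androgen held ACKR3 and NOV under 2 names each. Of the 20 symbols, 18 were in the deposited counts, 16 were tested and 5 were members: OPRK1, SI, ACKR3, CAMK2N1 and BCHE. The median log2 fold change of the 16 was -0.82 in shScramble and -0.39 in shTMEFF2, where 3 were called lower, all of them members, and BMPR1B and PEG10 were called higher. PEG10 was near the floor, at 0.513, 0.351 and 0.498 CPM in shTMEFF2 DHT- and 1.865, 0.892 and 0.806 CPM in shTMEFF2 DHT+. FOLH1, which encodes prostate-specific membrane antigen, fell in shTMEFF2 from 2295 ± 82.2 to 1759 ± 72.4 CPM (SD, n = 3; log2 fold change -0.38, SE 0.05, adjusted p = 0.000458), short of 1.5-fold, and missed the rule in shScramble with 2604 ± 41.9 and 1347 ± 17.1 CPM. CDH2 was listed at 0 in every library. The 20 tested genes of a list of androgen-induced genes held no member, and 11 were called higher and 0 lower in shTMEFF2. Their median was 2.07 in shScramble and 0.72 in shTMEFF2, so both lists had a smaller median change in shTMEFF2. This difference was not tested. It did not hold for every induced gene. FKBP5 changed by 3.38 (SE 0.16) in shScramble and 0.89 (SE 0.15) in shTMEFF2, but KLK3 by 1.96 (SE 0.22) and 2.45 (SE 0.23). Lists of growth factor feedback, Wnt and TGF-β or BMP genes held 1 member each (FGF13, RNF43 and ID3), with 2 of 44, 0 of 34 and 1 of 40 tested genes called lower in shTMEFF2 and 2, 1 and 2 called higher. Their medians were -0.14, -0.09 and -0.17 in shTMEFF2 and -0.10, -0.14 and -0.19 in shScramble.

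Between the lines, members had no common direction of difference without DHT. The median log2 difference of shTMEFF2 from shScramble was 0.00 without DHT, with 95 of 189 fitted values above 0, and 0.75 with DHT, with 180 above 0. Without DHT the 3 shTMEFF2 libraries were above the 3 shScramble libraries for 25 of 189 members and below for 38. Both shares are larger than those over all genes tested (8.72% and 9.98%). With DHT the shTMEFF2 libraries were above for 157 members and below for 2 (21.2% and 12.7% of all genes tested). Over all genes tested the median difference was 0.00 at both DHT levels. These comparisons use the choosing libraries and carry no test. The lowest ratios of shTMEFF2 to shScramble without DHT were those of CCDC85A (0.412), LINC00328-2P (0.513) and TLL1 (0.533), and the highest those of ID3 (2.62), SEMA6A (2.25) and MYLK (1.91). MYLK, myosin light chain kinase, was at 23.6, 24.6 and 51.8 CPM in shTMEFF2 DHT- and 16.2, 10.2 and 39.8 CPM in shTMEFF2 DHT+, high in replicate 3 at both DHT levels. The rule applied to shTMEFF2 in place of shScramble chose 32 genes, and 15 were shared, which is 7.94% of the members and 46.9% of the 32. The shared genes were ABCG1, ACTRT3, ANTXR1, C1QTNF3-AMACR, FBXO2, IL1RN, LRRN1, MYNN, MYRIP, OPRK1, PLA2G2A, SELENBP1, SHC2, ZNF703 and 1 Y-linked member.

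On GRCh38, 182 members had a position in the GENCODE annotation, 12 of them through a current symbol, and 179 were protein-coding. Their median span was 76.8 kb, against 34.1 kb for 9904 genes at 10 CPM or more in shScramble DHT-. There were 10 pairs of members within 100 kb. DDC and GRB10 are neighbours on chromosome 7, 24658 bases apart and on the same strand, and both were higher in shTMEFF2 without DHT. FAM198B and TMEM144, both among the 4 genes called in each held-out test, lie 28286 bases apart on chromosome 4 on opposite strands. COLQ and HACL1 lie together on chromosome 3, STK3 and OSR2 on chromosome 8, and the 3 HOXC genes make 3 pairs. C1QTNF3 overlaps the readthrough gene C1QTNF3-AMACR, and ZNF117 overlaps ERV3-1, so counts of these pairs can be split uncertainly. In all, 27 members (14.8%) overlap a tested gene on the other strand, AMIGO2, LRRN1, FBXO2, TP53INP1, AIDA and ATP1B1 among them. These overlaps are of whole gene spans, introns included, and the overlap of their exons was not computed. The strand setting of the libraries is not given in the sources used here. Reads from any exon sequence that such partners share could therefore not be told apart by strand.

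The closest pair on opposite strands apart from STK3 and OSR2 was ACTRT3 and MYNN on chromosome 3, with 3835 bases between them. ACTRT3, an actin-related protein known from sperm, went from 23.4, 20.5 and 14.1 to 4.66, 4.13 and 1.89 CPM in shScramble and from 29.9, 35.6 and 27.0 to 18.3, 14.2 and 10.9 CPM in shTMEFF2. MYNN, a zinc finger factor of the BTB family, went from 233, 215 and 142 to 47.7, 43.1 and 38.4 CPM in shScramble and from 256, 312 and 227 to 151, 123 and 108 CPM in shTMEFF2. Both were called lower in shTMEFF2, with nearly the same log2 fold change (-1.09, SE 0.27, adjusted p = 0.0189, and -1.06, SE 0.19, adjusted p = 0.00370). Their tested neighbours were then listed, after these values had been seen. Among the 12 tested genes with a part within 700 kb of the MYNN start, the 5 from MECOM to LRRC31 (chr3:169083499-169869935) were all called lower in shTMEFF2, at -1.29 for MECOM, -1.09 for ACTRT3, -1.06 for MYNN, -1.04 for LRRC34 and -1.13 for LRRC31, with adjusted p from 0.00370 to 0.0249. None of the other 7, all beyond LRRC31, was called, although SKIL, a brake on TGF-β signalling, was lower by less than 1.5-fold (-0.43, SE 0.12, adjusted p = 0.0316). On the other side the window ended shortly past MECOM. Genes further out there were not looked at, so the end of the stretch on that side is not known. The call of ACTRT3 was not made in every alternative fit. MECOM, which encodes the zinc finger factor EVI1, LRRC34 and LRRC31 were not members because their means in shScramble DHT- were 6.95, 7.68 and 5.92 CPM. Their fitted changes in shScramble ran alongside, from -3.12 for LRRC31 to -1.81 for LRRC34. SEC62, which begins 96.7 kb past LRRC31 and encodes a protein of the translocon, was at 153 to 164 CPM in shTMEFF2 DHT- and 156 to 167 CPM in shTMEFF2 DHT+ (log2 fold change 0.06, SE 0.06, adjusted p = 0.596).

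**Figure D5:**
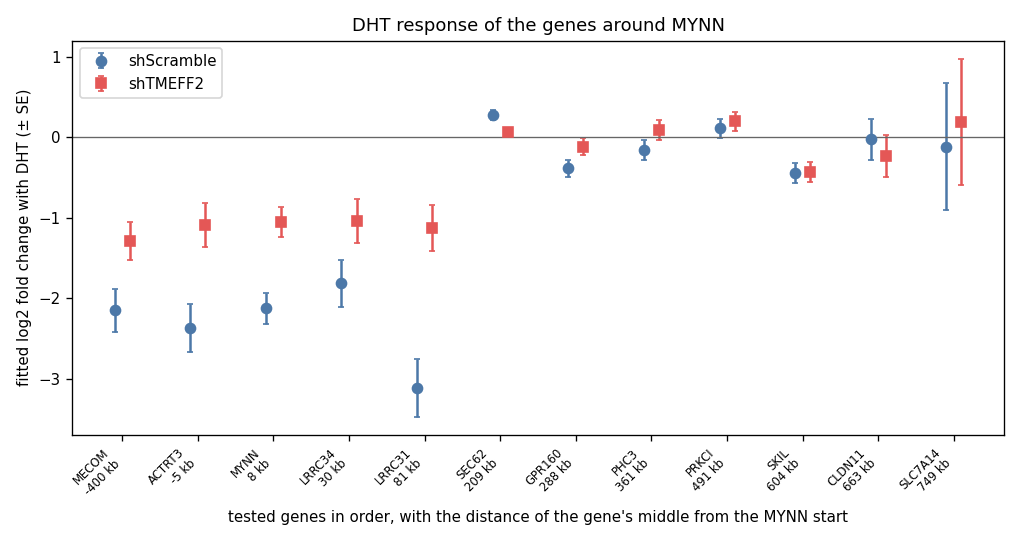
Fitted log2 fold change with DHT (± SE) in shScramble (blue circles) and shTMEFF2 (red squares) for the 12 tested genes around MYNN, in order along chromosome 3, labelled with the distance of each gene's middle from the MYNN start in kb. The 5 genes from MECOM to LRRC31 lie between -3.12 and -1.81 in shScramble and between -1.29 and -1.04 in shTMEFF2, and the 7 genes from SEC62 on lie between -0.45 and 0.27 in both lines.

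Of the 189 members, 1 is Y-linked and its values are not given. Members with near-identical copies elsewhere in the genome, such as NAIP, PMS2, GUSBP1 and GOLGA6L5P, share reads with those copies, and their values are uncertain.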

How the data were processed

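RNA-seq libraries (75 bp paired-end, standard Illumina protocols) of LNCaP cells were sequenced; the authors trimmed reads (Trimmomatic, minimum 15 bp) and quantified them with kallisto 0.42.3 on GRCh38. The authors deposited expected counts per gene symbol, obtained through tximport and already scaled for transcript length and library size, so a switch between transcripts does not by itself change a count. The 24 columns, 2 per library, were summed to 12 libraries. CPM is by library total. Summed counts were rounded and fitted in edgeR 4.0.16 (R 4.3.3; TMM factors 0.955 to 1.037; filterByExpr, minimum count 10; 15419 genes; 1 coefficient per group; common biological coefficient of variation 0.131). Calls needed a fold change of 1.5 and a Benjamini-Hochberg adjusted p of 0.05 over all genes tested. Interactions were called on the adjusted p.

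Members, lists, roles and tests were chosen with earlier results of these data known. Genes were named by a rule: the deepest falls, the highest levels, the lowest and highest fold changes and smallest p in shTMEFF2, members on the lists, genes at the limits, the largest line ratios, and examples of roles. Alternatives were DESeq2 1.42.0, limma-voom (limma 3.58.1), other filters and scaling, the 6 shTMEFF2 libraries alone, a replicate block, leaving out each library, and other limits of the rule. The fits were tested on simulated data. Positions are from GENCODE and promoters from RefSeq (GRCh38.p14), and promoters were found for 134 of 189 symbols. Some genes are not reported here.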

Additional observations from a re-analysis of the deposited data

Results flagged for a closer look

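In the held-out tests the response to DHT differed between the lines for some of the genes chosen on shScramble. Of the genes chosen without replicate 1, 2 or 3 of shScramble, 14, 15 and 4 had a smaller fall in shTMEFF2 at an adjusted p of at most 0.05 (edgeR's quasi-likelihood test of the difference), and 0 had a larger one. The 3 fits share the 6 shTMEFF2 libraries, so they are not independent of each other. Choosing the genes by their fall in the shScramble line also favours this direction.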

How the results depend on the processing

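The number of members called lower with DHT in shTMEFF2 was 65 with library size only, with DESeq2 and with a filter at a mean of 5 CPM, 66 with limma-voom, 70 without a filter and 62 with the 6 shTMEFF2 libraries alone. Leaving out a library gave 41 to 84, lowest without shTMEFF2 DHT+ replicate 3 and highest without shTMEFF2 DHT+ replicate 1. The median log2 fold change of the members stayed between -0.634 and -0.464. Libraries with the same replicate number deviated together weakly: their correlations were -0.002 to 0.169, above 0 in 17 of 18 pairs and over 0.1 in 3, against -0.14 to 0.066 and above 0 in 5 of 36 pairs with different numbers. In 33 of 36 cases a library correlated best with its own number in another group. Not every pair was over 0.1, a limit set by choice, and the labels do not tie the numbers together. The main fit therefore used no pairing and leaves what same-numbered libraries share in its spread. Same-number pairs were used above for descriptions only. With a replicate block added, 75 members were called, against 65 in the main fit. In that blocked fit, chosen for this gene after seeing the data, the log2 difference of TMEFF2 between the lines was -0.47 (SE 0.14, adjusted p = 0.124) without DHT and -0.40 (SE 0.14, adjusted p = 0.0689) with DHT. With members that fell 3-fold or more, 50 genes were chosen, of which 27 were called lower (median -0.739) and 31 were below without overlap, a smaller list by construction. With a minimum of 5 CPM, 264 genes were chosen, and 1, KCNH3, was called higher. Choosing on TMM-normalized CPM gave 151 members, 57 of them called lower, and leaving a shScramble library out of the choice gave 184 to 219. This was followed for 52 named members, without those named only as examples of roles or as neighbours. Of the 52, 34 kept their sign and side of the threshold in all 19 fits, 4 lost a call and 10 gained one in some fit. The sign changed for 4 when a library was left out: ANKRD44 (-0.034 to 0.256), LIF (-0.004 to 0.265), TOX3 (-0.11 to 0.401) and RNF43 (-0.161 to 0.025). Outside the 52, several members given above as called lower were not called in every fit. They were ABCG1, ACTRT3, TRPS1, HOXC4, BMF, GPER1, GPR63, SLC9A3, DENND1B and ENC1. The causes were not tested. The median standard error of the members was 0.16 with 3 libraries a group, and changes under 1.5-fold were never called.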

Other observations

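Of the 32 genes that the same rule chose in shTMEFF2, 17 were not members, and several of them were high in shTMEFF2 DHT- only. ARFGAP2, a coat protein regulator of the Golgi, was at 477, 252 and 191 CPM in shTMEFF2 DHT- and at 48.3 to 61.9 CPM in the 9 other libraries. ITSN1, an endocytic scaffold, was at 140, 124 and 108 CPM there and at 32.4 to 48.9 CPM elsewhere. MVP, the major vault protein, was high in 1 library, at 291 CPM in shTMEFF2 DHT- replicate 2, with 20.6 and 43.7 CPM in the other two. MECOM and LRRC31, both under 10 CPM in shScramble DHT-, and VWA2 were also among the 17. These genes were picked after their values had been seen.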
